A study of Arabidopsis thaliana with 16 samples.

Results

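Transcripts of 4 chloroplast enzymes of Arabidopsis thaliana are described here, each through the probe that the platform annotation assigns to its locus alone. A plastid 3-ketoacyl-ACP reductase (AT1G24360, KAR below) and the thioesterase FATB (AT1G08510) belong to fatty acid synthesis, and ketol-acid reductoisomerase (AT3G58610, KARI) and dihydroxyacid dehydratase (AT3G23940, DHAD) to the synthesis of branched-chain amino acids. These 4 loci were taken by name, and their 4 probes are among the 692 single-gene probes of an array with 3439 probes. FATB is also listed on 1 probe with several genes, which was not used. Total RNA came from psag plants, mutants without the PSI-G protein of photosystem I (8 arrays), and from wild type (WT, 8 arrays), both of ecotype Columbia 0. The labels give no mutant allele, tissue, age, light condition or dye, nor whether each replicate was grown and extracted separately. No probe of its own was available for PSAG, so its transcript level in the mutant was not checked.

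Plant fatty acids are built in the plastid on acyl carrier protein (ACP), by repeated cycles of condensation, reduction, dehydration and a further reduction. KAR carries out the first reduction of each cycle with NADPH. FATB ends the process for saturated chains, mainly palmitate, by cutting the finished fatty acid from ACP so that it can leave the plastid. Valine, leucine and isoleucine are also made in the plastid, where KARI reduces and rearranges the acetohydroxy acids with NADPH and DHAD, an iron-sulfur enzyme, removes water from the product. Photosystem I, of which PSI-G is a small membrane subunit, passes electrons to ferredoxin, from which chloroplasts make NADPH. No sequence of these genes or probes was used here.

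The deposited intensities lie between 0 and 100 on a linear scale, sum to between 2314 and 3460 per array and have no stated normalization. Levels below are either these intensities or log2(intensity + 0.0407) after quantile normalization, called log2 levels. A fold or difference on the log2 scale understates changes of dim probes such as FATB. Neighbouring replicates (1 and 2, 3 and 4, 5 and 6, 7 and 8) were averaged as 1 measurement, giving 4 per genotype. Deviations of neighbours from their genotype mean correlated in all 4 psag pairs but clearly in only 2 of the 4 WT pairs (0.32 and 0.54, against -0.12 and 0.09), so this averaging is weakly founded for WT replicates 3 to 6, and n = 4 may understate the replication. Each array is part of the mean subtracted, which lowers such correlations, so low ones do not show that neighbours were independent. The psag mean includes the outlying replicates 7 and 8 described below, which can raise the psag correlations. They were not computed without that pair. A p-value below therefore reflects only how far these measurements scatter, and that scatter may be technical. Psag replicates 7 and 8 stood apart from all other arrays: their measurement correlated with the others at 0.819 to 0.852, against 0.934 to 0.980 among the others. The differences between genotypes are therefore given with and without this pair. What sets the pair apart was not tested.

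No call was made for any of the 4 genes between psag and WT. In bulk RNA, fewer cells of a type and less RNA per cell cannot be told apart. At a limma adjusted p under 0.05, 0 of 4 were called, against 11 of 3438 probes, or 0.320%, over the whole array. At an unadjusted limma p under 0.05 it was also 0 of 4, against 12.7% of all probes. The 2 fatty acid genes had lower mean levels in psag, KARI had nearly the same mean, and DHAD had a higher mean. The median difference of the 4 was -0.38 on the log2 scale, and 3 of 4 were below 0, against a median of 0 over all probes, of which 49.2% were below 0. Shares and medians over all 3438 probes include 130 listed at 0 on all 16 arrays, which cannot differ. Without psag replicates 7 and 8 the median of the 4 was -0.13, with 2 of 4 below 0, against -0.02 and 56.5% over all probes. In that setting 0 of 4 were called, against 2.39% of all probes (limma, adjusted p under 0.05).

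**Figure D1:**
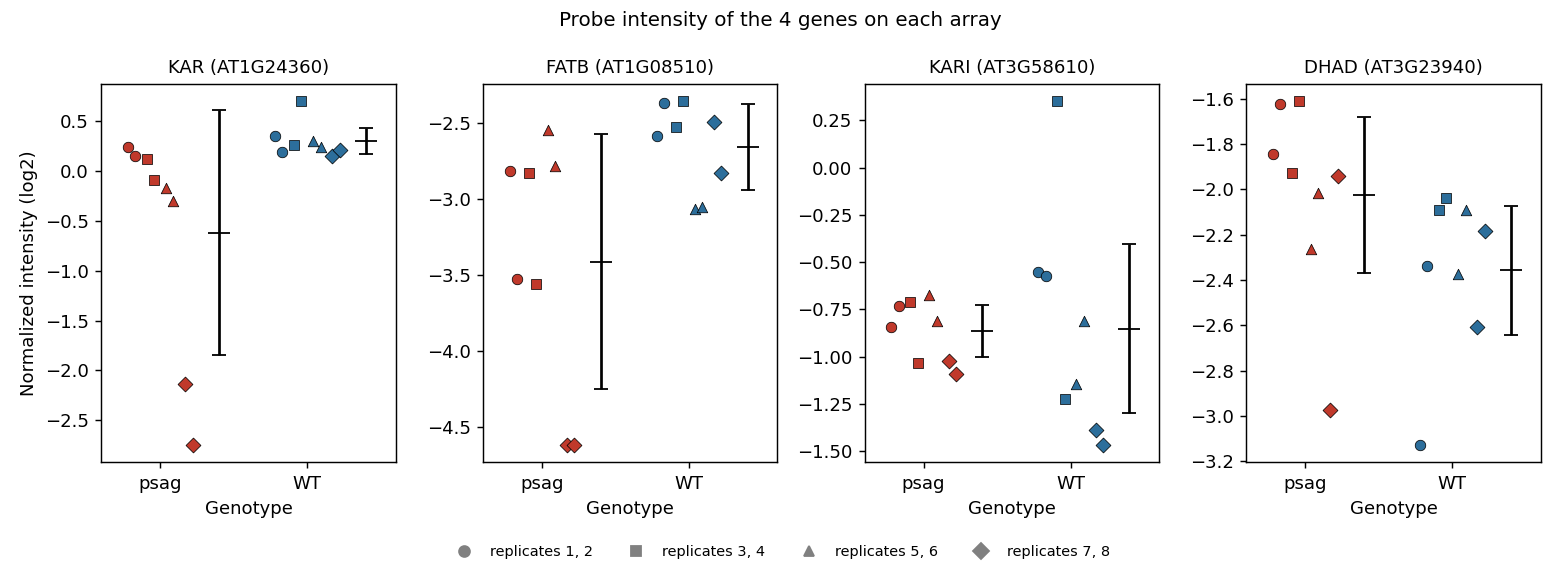
Normalized log2 intensity of KAR, FATB, KARI and DHAD on each of the 8 psag and 8 WT arrays, 1 panel a gene with its own vertical scale. Symbols mark neighbouring replicates, and the bar beside each group is the mean and SD of its 4 averaged measurements. Psag replicates 7 and 8 lie far below every other array for KAR and FATB, and WT replicate 3 lies above every other array for KARI.

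KAR had intensities on psag arrays of 0.0744 at the lowest, 0.940 at the median and 1.23 at the highest. On WT arrays they were 1.08 at the lowest, 1.20 at the median and 1.68 at the highest. The psag arrays fell into visibly different levels: replicates 1 to 4 lay within or just below the WT range, replicates 5 and 6 below it, and replicates 7 and 8 at 0.125 and 0.0744, the 2 lowest KAR values of the data set. The averaged log2 levels in psag were 0.20, 0.02, -0.24 and -2.44 for replicates 1 and 2, 3 and 4, 5 and 6, and 7 and 8. In WT, in the same order of numbers, they were 0.27, 0.48, 0.28 and 0.18. The genotypes overlapped through psag replicates 1 and 2, which were just above WT replicates 7 and 8. WT was narrow, with an SD of 0.13, whereas psag had an SD of 1.23 (n = 4 each).

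The difference for KAR was -0.92 ± 0.58 (SE), a 1.89-fold lower level in psag, with a 95% interval from -2.29 to 0.45 (limma, adjusted p = 0.570). The exact two-sided permutation test over 70 groupings gave p = 0.0571, where 0.0286 is the smallest p it can give. A difference this low or lower was found at 2.07% of all probes, while 27.4% had a limma p as small or smaller. On psag replicates 7 and 8 the KAR intensities of 0.125 and 0.0744 were not far above the pseudocount of 0.0407, so their log2 levels depend on it. With a pseudocount of 0.00856 the difference was -0.99, and with one of 0.156 it was -0.75. The size rested on psag replicates 7 and 8. Without them KAR was at 0.05 ± 0.22 in psag (SD, n = 3) and 0.36 ± 0.13 in WT (SD, n = 4). That difference was -0.31 ± 0.12 (SE), with an interval from -0.61 to -0.003 (limma, adjusted p = 0.273; exact permutation p = 0.114). With the 35 groupings left, the two-sided exact test doubles the smaller tail and cannot give a p under 0.05. The unadjusted limma p was 0.0484, and 18.2% of all probes had an unadjusted p under 0.05 in this setting. With arrays centred on their medians instead of quantile normalized, all 4 psag measurements lay below all 4 WT measurements, at a difference of -1.01 (limma, adjusted p = 0.463). The share of all probes lying apart in that setting was not computed, so how unusual this is remains unknown. In it 0 probes were called over the whole array.

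FATB was a dim probe, with WT intensities only a few times the pseudocount of 0.0407. On psag arrays its intensity was listed at 0 on 2 of 8, had a median of 0.0936 and reached 0.148. On WT arrays it was 0.0677 at the lowest, 0.115 at the median and 0.179 at the highest, and was listed at 0 on none of 8. The 2 zeros were psag replicates 7 and 8, so both arrays of that measurement have a log2 level set by the pseudocount, not by a signal. The averaged log2 levels in psag were -3.17, -3.19, -2.67 and -4.62 in the order of the replicate numbers. In WT they were -2.48, -2.44, -3.06 and -2.66. WT replicates 5 and 6 lay among the psag values, and psag replicates 5 and 6 were at the level of WT replicates 7 and 8, so the genotypes overlapped.

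The fitted difference for FATB was -0.75 ± 0.41 (SE), with a 95% interval from -1.74 to 0.23 (limma, adjusted p = 0.525; exact two-sided permutation p = 0.0571). A difference this low or lower was found at 4.13% of all probes. Its size depends on how the zeros are treated: it was -1.33 with a pseudocount of 0.00856 and -0.34 with one of 0.156 (limma, adjusted p = 0.565 and 0.494). On the other arrays FATB was never listed at 0, and with psag replicates 7 and 8 left out its levels were -2.96 ± 0.30 in psag (SD, n = 3) and -2.60 ± 0.29 in WT (SD, n = 4). That difference was -0.36 ± 0.21 (SE, limma adjusted p = 0.471), with an exact permutation p of 0.114. With 35 groupings this exact test cannot give a p under 0.05. The difference is present only after scaling. Without normalization the same arrays gave -0.0014 (95% interval -0.49 to 0.49). The mean intensity was 0.112 on psag replicates 1 to 6, against 0.113 on the 8 WT arrays. Unscaled, these arrays were not equally bright. Array medians were 0.334 to 0.347 on psag replicates 1 to 4 and 0.204 to 0.260 on WT replicates 1 to 6. They were 0.239 and 0.245 on psag replicates 5 and 6, and 0.339 and 0.336 on WT replicates 7 and 8. The neighbours among the first 4 psag replicates were also uneven for this probe, differing by 0.71 (replicates 1 and 2) and 0.73 (replicates 3 and 4) on the log2 scale, while WT neighbours differed by 0.01 to 0.33.

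**Figure D2:**
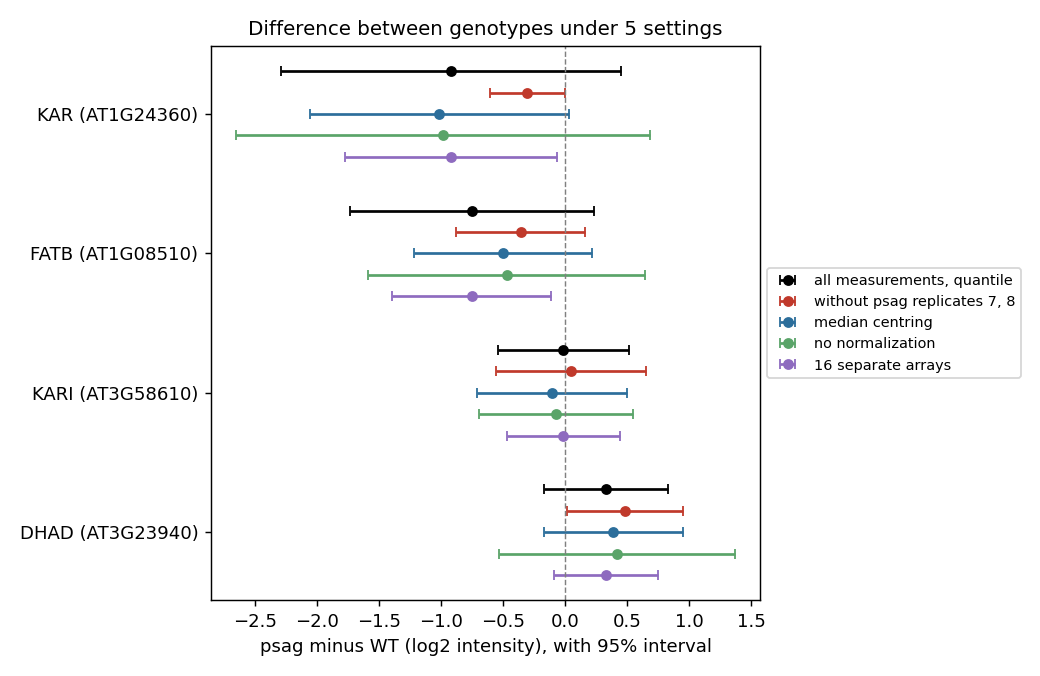
Difference psag minus WT on the log2 scale for each gene, with its 95% limma interval, under 5 settings of the analysis. The differences of KAR and FATB lie left of 0 and that of DHAD right of 0 in all 5 settings, while KARI lies on both sides, and leaving out psag replicates 7 and 8 brings KAR to -0.31 and FATB to -0.36. Intervals exclude 0 only for KAR and DHAD without that pair and for KAR and FATB with 16 separate arrays. The latter setting counts neighbouring arrays as independent.

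KARI was the gene with the least difference between the genotype means. On psag arrays its intensity was 0.293 at the lowest, 0.549 at the median and 0.686 at the highest. On WT arrays it was 0.374 at the lowest, 0.477 at the median and 1.28 at the highest. As intensities, psag replicates 7 and 8 were below every WT array and the other psag values lay inside the WT range. After normalization that pair, at -1.02 and -1.09, also lay inside the WT range. The averaged log2 levels in psag were -0.79, -0.87, -0.74 and -1.06 in the order of the replicate numbers. In WT they were -0.56, -0.43, -0.98 and -1.43, with the highest and the lowest measurement of the data set both in WT. The SD was 0.14 in psag and 0.45 in WT (n = 4 each), the reverse of KAR.

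The difference for KARI was -0.01 ± 0.22 (SE), and its 95% interval ran from -0.54 to 0.51 (limma, adjusted p = 1; exact two-sided permutation p = 1). A change of about 0.5 on the log2 scale in either direction lies within that interval, so the data do not show that KARI was unaffected. WT replicates 3 and 4 disagreed about this gene, at intensities of 1.28 and 0.374, a gap of 1.58 on the log2 scale, where the other 7 pairs of neighbours differed by 0.02 to 0.33. The difference was 0.18 without WT replicate 3 and -0.21 without WT replicate 4. Without psag replicates 7 and 8 it was 0.05 ± 0.25 (SE; limma, adjusted p = 0.980; exact permutation p = 0.914).

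DHAD, which acts directly after KARI, was the 1 gene of the 4 with a higher mean in psag. On psag arrays its intensity was 0.0577 at the lowest, 0.243 at the median and 0.371 at the highest. On WT arrays it was 0.0452 at the lowest, 0.172 at the median and 0.238 at the highest. The averaged log2 levels in psag were -1.73, -1.77, -2.14 and -2.46 in the order of the replicate numbers. In WT they were -2.73, -2.07, -2.23 and -2.40. As intensities, psag replicates 1 to 4 lay above all WT arrays and the other psag replicates did not. After normalization replicates 6 and 8 also lay above all WT arrays, and the averaged measurements of the genotypes overlapped. Neighbours disagreed most in psag replicates 7 and 8, by 1.03, and in WT replicates 1 and 2, by 0.79 on the log2 scale.

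The difference for DHAD was 0.33 ± 0.21 (SE), a 1.26-fold higher level in psag, with a 95% interval from -0.17 to 0.83 (limma, adjusted p = 0.573; exact two-sided permutation p = 0.200). A difference this high or higher was found at 19.9% of all probes. Without psag replicates 7 and 8 the levels were -1.81 ± 0.23 in psag (SD, n = 3) and -2.30 ± 0.29 in WT (SD, n = 4). That difference was 0.48 ± 0.19 (SE), with an interval from 0.01 to 0.95 (limma, adjusted p = 0.265, unadjusted p = 0.0458; exact permutation p = 0.114). As for KAR, the exact test with 35 groupings cannot give a p under 0.05. By limma, KAR and DHAD were thus the 2 of 4 genes under an unadjusted p of 0.05 in that setting, in opposite directions, against 18.2% of all probes. Leaving out single arrays moved the DHAD difference between 0.20 (without psag replicate 8) and 0.46 (without psag replicate 7), and leaving out WT replicates 1 and 2 gave 0.20.

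After quantile normalization, and with all measurements, 0 of the 4 genes had psag measurements all below or all above the WT measurements. Over all probes these shares were 4.30% and 5.73%. Without psag replicates 7 and 8 it was again 0 of 4, against 7.62% and 9.48% of all probes. With centring on medians instead, KAR alone of the 4 lay apart, psag below WT, with and without that pair. Shares over all probes were not computed for that centring.

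Relative to the mean of the other 3 psag measurements, psag replicates 7 and 8 were at -2.43 for KAR, -0.58 for DHAD and -0.26 for KARI on the log2 scale. FATB came to -1.61, a value set by the pseudocount because the probe was listed at 0 on both arrays, so it is not placed among the others. Deviations as low as that of KAR were found at 90 of 3438 probes, or 2.62%. For DHAD the share was 23.1% and for KARI 32.2%. Of all probes, 157 were at least 4-fold lower and 52 at least 4-fold higher in this pair, with a median deviation of 0. These shares and that median count the 130 probes listed at 0 on all arrays, which cannot deviate. WT replicates 7 and 8 deviated from the other WT measurements by -0.16 for KAR, -0.003 for FATB, -0.05 for DHAD and -0.77 for KARI. The arrays of psag replicates 7 and 8 also had the lowest sums of intensities in the data set, 2314 and 2367, and the part of this in the result was not tested.

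**Figure D3:**
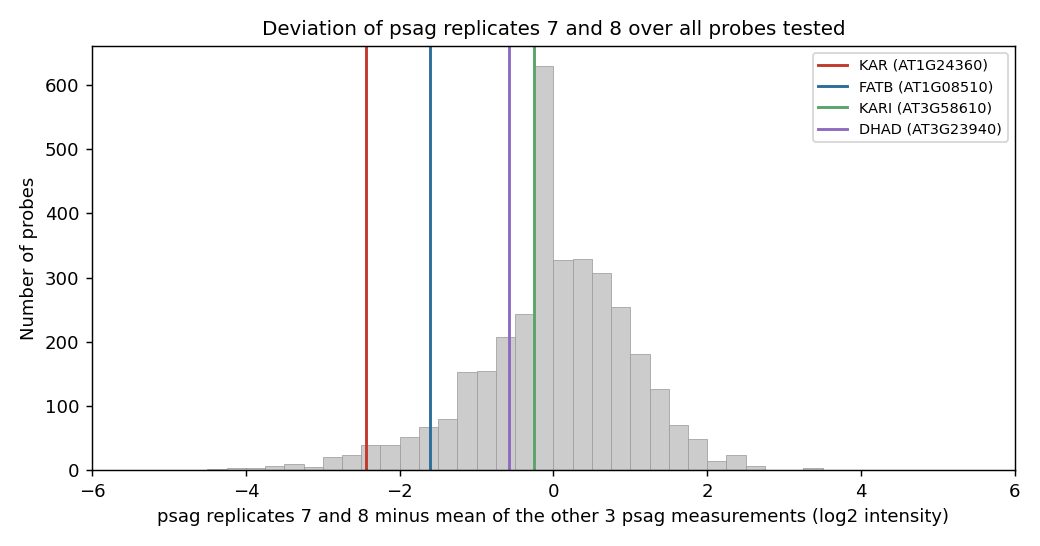
Distribution over all 3438 probes of the difference between psag replicates 7 and 8 and the mean of the other 3 psag measurements, on the log2 scale in bins of 0.25, with the 4 genes as vertical lines. KAR at -2.43 lies in the lower tail, and DHAD at -0.58 and KARI at -0.26 lie within the bulk. The line of FATB at -1.61 is set by the pseudocount. The tallest bin, from -0.25 up to and including 0, holds 629 probes, among them the 130 listed at 0 on all arrays.

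Across the 16 arrays the levels of KAR and FATB went together, with a Pearson correlation of 0.87, but it was 0.30 over the 14 arrays without psag replicates 7 and 8. The 2 branched-chain genes, KARI and DHAD, had correlations of 0.03 and 0.001 in these settings. Between the pathways, FATB and DHAD were at -0.04 over 16 arrays and at -0.59 over 14. These are descriptions with no test, since neighbouring arrays are not independent and the genotypes are pooled.

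The single-gene probes most like each gene were taken among those above 0 on all 16 arrays. For KAR they were AT1G13370, AT3G16310 and AT4G04370, with correlations of 0.97, 0.97 and 0.96. Over 14 arrays these fell to 0.52, 0.58 and 0.30, and AT5G04600, CCS and AT3G44050 were then most like KAR, at 0.73, 0.73 and 0.71. Their correlations over 16 arrays were -0.42, 0.22 and 0.87. CCS is the copper chaperone of superoxide dismutase. For FATB, AT4G32060, AT3G20150 and AT4G08940 were at 0.91, 0.90 and 0.89 over 16 arrays, and at 0.62, 0.53 and 0.60 over 14. Over 14 arrays AT1G69910, AT1G54520 and AT2G39360 led, at 0.72, 0.71 and 0.70, against 0.15, -0.17 and 0.56 over 16 arrays. No gene stayed among the 3 most like KAR or FATB without the outlying pair. The first 3 of KAR then ranked 36, 20 and 111 of 495 probes, and those of FATB 12, 30 and 14 of 496.

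For the branched-chain genes some probes stayed among those most like them. AT1G21730 was most like KARI in both settings, at 0.70 over 16 arrays and 0.87 over 14. AT1G11470 and PRK, the Calvin cycle phosphoribulokinase, followed over 16 arrays at 0.65 and 0.62, and AT1G54500 and AT5G66530 over 14 arrays at 0.84 and 0.76. The latter 2 were at only 0.41 and 0.29 over 16 arrays. RAP74, a subunit of the transcription factor TFIIF, was most like DHAD over 16 arrays at 0.76, before LpxA at 0.68 and AT5G40140 at 0.65. Over 14 arrays the auxin-response gene IAA31 led at 0.92, with RAP74 at 0.75 and AT5G40140 at 0.74. The likeness of IAA31 did not hold over 16 arrays, where it was at 0.18.

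Little else of either pathway could be read on this array. Of 86 further loci in 7 lists (other enzymes of fatty acid synthesis, plastid pyruvate dehydrogenase, plastid glycerolipids, elongation and wax, beta-oxidation, and synthesis and breakdown of branched-chain amino acids), 1 had a probe of its own. This was AT5G16230, of the acyl-ACP desaturase family, which introduces double bonds into ACP-bound fatty acids. Its intensity was 0.0663 at the lowest, 0.109 at the median and 0.177 at the highest on psag arrays. On WT arrays it was 0.0741, 0.148 and 0.173 in the same order. The ranges overlapped almost wholly. Its averaged log2 levels were -2.76 ± 0.35 in psag and -2.48 ± 0.24 in WT (SD, n = 4 each), a difference of -0.28 ± 0.20 (SE) with exact two-sided permutation p = 0.229 (limma, adjusted p = 0.623). After normalization, and unlike KAR, its log2 level was 0.18 higher in psag replicates 7 and 8 than in the other psag measurements. As intensities that pair was not higher: it was at 0.105 and 0.0663, both below the mean of 0.131 on the other psag arrays. The difference of this gene from WT with that pair left out was -0.34 (limma, adjusted p = 0.549). Of 25 marker loci of green tissue, roots, seeds and senescence, 0 had their own probe, so the tissue could not be checked against its markers.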

How the data were processed

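The authors deposited 1 table of probe intensities for 16 arrays; the unit was inferred from the values, and their scanning, background correction and scaling are not stated in the labels. Gene names come from GEO's annotation of the platform, matched by gene identifier to RefSeq's gene table of assembly TAIR10.1 (690 of 692 single-gene probes). Of 1 locus with several probes the brighter was kept, leaving 3438. Intensities were taken as log2(intensity + 0.0407), the 5th percentile of positive values, and quantile normalized. Neighbouring replicates were averaged, as in an earlier analysis of these data. Their deviations from the genotype mean correlated at 0.45 to 0.73 in psag, but at 0.32, -0.12, 0.09 and 0.54 in WT. The low values give no ground for averaging WT replicates 3 and 4 or 5 and 6, but do not show independence either. Each array is part of the mean subtracted, which lowers such correlations. Sums of intensities were close within these pairs, 3460 and 3439 for WT replicates 3 and 4, and 2967 and 3019 for 5 and 6. Fits with 16 separate arrays are therefore given as an alternative. The comparison of psag with WT used limma 3.58.1 (R 4.3.3) over all probes (Benjamini-Hochberg, threshold 0.05), after the procedure had been tested on simulated data, and each gene with an exact permutation test. The number of arrays limits the precision. Same-numbered arrays deviated together at 0.05 to 0.21, not all over 0.1, so the numbers were not taken as pairs. Alternatives covered pseudocount, normalization, probe filters, replicate handling and leaving out arrays. The text names the 4 genes, list members with a probe of their own and the 3 probes most like each gene. Genes, lists and the averaging were chosen with earlier results of these data known.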

Additional observations from a re-analysis of the deposited data

Results flagged for a closer look

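Of 16 groups of values examined for the 4 genes (8 groups of 4 measurements and 8 groups of 8 arrays), 2 held a value far from the rest, where chance gives about 0.40 in each set of 8. Both concerned KAR. In psag, the measurement of replicates 7 and 8 lay at -2.44 and the nearest other at -0.24, a gap of 0.836 of the range of the 4. In WT, replicate 4 was the highest of 8 arrays at 0.71 with the next at 0.35, a gap of 0.638 of the range; without WT replicate 4 the KAR difference was -0.86 (limma, adjusted p = 0.618). Causes were not tested.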

How the results depend on the processing

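The differences of KAR and FATB were below 0 and that of DHAD above 0 under every alternative that gave them a value (37, 36 and 37 settings), and none of the 4 genes passed at limma adjusted p under 0.05 in any (lowest adjusted p = 0.137, FATB with 16 separate arrays). FATB has no value without the dimmest 25% of probes, which removes it. KAR ran from -1.20 to -0.25, FATB from -1.33 to -0.0014 and DHAD from 0.20 to 0.72. The values nearest 0 for KAR and FATB, and the highest for DHAD, came with unnormalized values of the 14 arrays left after removing psag replicates 7 and 8. That alternative was added after seeing the data, and in it 68 probes were called and KARI was at 0.15. KARI changed sign in 10 of 37 settings, among them array weights at 0.0039, and was -0.21 to 0.18 when 1 array was left out and -0.21 to 0.12 when 1 pair was. The array-wide count of 11 called probes was 6 with the lower pseudocount, 0 with median centring, 3 without the dimmest 25%, 2 without probes listed at 0 throughout, 330 with 16 separate arrays, 113 with pairs as a random block, 102 with array weights, 0 to 82 when 1 array or pair was left out (3 to 13 for 1 array, 82 without psag replicates 7 and 8), and 7 with centring on medians and without psag replicates 7 and 8. With replicate number as a block, it was 1 for averaged pairs and 287 for 16 arrays, and adjusted p was 0.555 and 0.176 for KAR, 0.563 and 0.202 for FATB, 1 and 1 for KARI, and 0.609 and 0.274 for DHAD (limma). Causes were not tested. The pseudocount moved FATB more than the other 3 genes, between -1.33 and -0.34.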
